A study of Mus musculus with 72 samples.

Results

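The genes described here encode the subunits of complexes I to IV of the mitochondrial respiratory chain, with a few proteins that assemble or join these complexes. They were followed in kidney cortex and medulla of Balb/c mice after internal exposure to 177Lu, a beta-emitting radionuclide. A gene was taken when its symbol in the array's annotation began with Ndufa, Ndufb, Ndufc, Ndufs, Ndufv, Sdh, Uqcr, Cox4i, Cox5, Cox6, Cox7 or Cox8, without the Ndufaf assembly factors. The array held 68 such genes. Of these, 62 reached an intensity of 150 on all 3 arrays of at least 1 group and were tested, among 9024 genes that did so. They were 32 genes of complex I, 3 of complex II, 4 assembly factors of complex II, 6 of complex III, 15 of complex IV, the supercomplex factor Cox7a2l and the pseudogene Ndufs5-ps. Cox8c, Cox7b2, Uqcrq, Cox4i2, Ndufs1 and Uqcrfs1 stayed under this floor, and the annotation gave no probe to Sdha. Just outside the floor, Uqcrfs1 reached 142.2 and Ndufs1 126.9 on the dimmest array of their best group. Just inside it, Cox6a2 reached 271.1, Ndufb11 288.2 and Cox6b2 292.6.

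Complexes I and II pass electrons from NADH and from succinate to ubiquinone, complex III passes them on to cytochrome c, and complex IV hands them to oxygen. Complexes I, III and IV pump protons in doing so, and the gradient drives ATP synthesis. The proximal tubule of the cortex and the thick ascending limb of the medulla are rich in mitochondria, while the inner medulla works at low oxygen and relies more on glycolysis. Several complex IV subunits exist as a common form and a form first described in muscle or testis.

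The series compared 24 groups of 3 arrays each. Medulla and cortex were each taken from mice with an absorbed kidney dose of 0.3 Gy, 3 Gy or 10 Gy of 177Lu and from controls, at 1.5, 3 or 4.5 months. All mice were of the Balb/c strain. Age, sex, injected activity and any vehicle given to the controls are not given in the sources used here. Each sample's total RNA was hybridised to 1 Illumina MouseRef-8 array, and every value below is a log2 intensity or a difference of log2 intensities. No label tells if replicates were different mice, or if medulla and cortex samples were taken from the same one. The p-values therefore measure the spread between these samples, which may be technical.

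Replicate 3 of the cortex controls at 1.5 months was left out, because its mean correlation across genes with the other cortex arrays was 0.648, against 0.964 or more for each of the others. On that array 53 of the 62 members lay below every other cortex array, which leaves 71 arrays and 2 controls in that group. The zone labels were checked against tubule markers in the controls, where 6 of 10 measured thick ascending limb markers were higher in medulla and 0 lower, with a median difference of 0.55. Of 13 proximal tubule markers, 7 were lower in medulla and 2 higher, with a median of -0.82. Higher and lower markers in medulla were 0 and 3 of 4 for the distal convoluted tubule, 4 and 3 of 7 for principal cells, 1 and 4 of 5 for intercalated cells and 4 and 0 of 5 for thin limb and papilla. They were 4 and 0 of 9 for endothelium, 7 and 0 of 7 for macrophages and 1 and 0 of 4 for blood.

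The respiratory chain genes were mostly among the brightest on the array. The mean log2 intensity of 40 of the 62 members exceeded 12.19, the 95th percentile of all genes. The highest member mean, that of Uqcr10, was 14.36, close to the highest value on any array, 14.66. All arrays of both zones came with nearly the same distribution of intensities. Whether differences between such bright spots are compressed, by the scale or by this common distribution, was not tested.

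In control kidneys, 10 of 62 members (16.1%) differed between medulla and cortex at an adjusted p under 0.05, against 37.4% of all genes tested. Of the 10, 4 were higher in medulla and 6 lower, where 18.7% of all genes were higher and 18.7% lower. The median size of the difference, whatever its sign, was 0.07 for the members and 0.13 for all genes. These p-values come from limma with Benjamini-Hochberg adjustment over the 9024 genes. The means compared were those of 9 medulla and 8 cortex control arrays. The error was estimated within the 24 groups of all 71 arrays, exposed ones included. In bulk tissue, fewer cells of a type and less RNA per cell cannot be told apart. The median difference was -0.03 over the members and -0.01 over all genes. With the left-out array in the fit, 6 members were higher, 2 were lower and the members' median was 0.10.

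Among complex I genes, 3 of 32 were higher in control medulla and 1 was lower. Ndufv1 encodes the flavoprotein that takes up electrons from NADH. Its lowest, median and highest values were 13.35, 13.55 and 13.77 in control medulla, against 13.10, 13.27 and 13.50 in control cortex. The ranges overlapped, and the difference was 0.27 ± 0.052 (SE, adjusted p = 2.24e-05 by limma). Ndufb8, an accessory subunit of the membrane arm, spanned 13.79, 14.03 and 14.30 in control medulla, against 13.74, 13.82 and 13.96 in control cortex. It was higher in medulla by 0.20 ± 0.050 (adjusted p = 0.00108, limma), although single arrays of the zones overlapped. Ndufs7, an iron-sulfur subunit near the ubiquinone site, was higher by 0.16 ± 0.048 (adjusted p = 0.00506, limma). Ndufa2, an accessory subunit of the matrix arm, went the other way, with 12.86, 12.99 and 13.24 in control medulla and 13.12, 13.23 and 13.45 in control cortex. It was lower in medulla, at -0.26 ± 0.074 (adjusted p = 0.0034, limma). It stood at -0.11 with the left-out array and did not pass (adjusted p = 0.47).

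No gene of complex II or of its assembly factors passed the threshold in controls. Sdhc, the large membrane anchor of succinate dehydrogenase, came nearest with a difference of -0.14 ± 0.061 (adjusted p = 0.0537, limma). All 6 complex III genes were below 0 in control medulla relative to cortex, and 2 passed the test. Uqcr10, Uqcrc2 and Uqcrh stood close to 0, at -0.02, -0.04 and -0.05. In exposed kidneys 2 of the 6 were above 0 at 0.3 Gy, 1 at 3 Gy and 2 at 10 Gy. Uqcr11, a small subunit, had 13.32, 13.46 and 13.61 in control medulla, against 13.39, 13.59 and 13.79 in control cortex. Uqcrc1, one of the core proteins, had 12.18, 12.30 and 12.64 in control medulla, against 12.42, 12.55 and 12.62 in control cortex. The differences were -0.18 ± 0.052 (adjusted p = 0.00544, limma) for Uqcr11 and -0.17 ± 0.062 (adjusted p = 0.0219, limma) for Uqcrc1. The left-out array decides both calls: with it, the differences were 0.01 for Uqcr11 and 0.03 for Uqcrc1. Of 26 alternatives, the call of Uqcr11 held in 25 and that of Uqcrc1 in 21.

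Complex IV held the pairs of common and tissue-restricted forms, and in control medulla 1 of its 15 members was higher and 3 were lower. Cox6b1, the common form of a subunit that faces the intermembrane space, was higher in control medulla by 0.23 ± 0.079 (adjusted p = 0.0179, limma). It did not pass without cortex replicate 2 (0.18, adjusted p = 0.109) or medulla replicate 1 (0.19, adjusted p = 0.0599) of 1.5 months. Its partner Cox6b2, known from testis, was lower, at -0.45 ± 0.09 (adjusted p = 4.82e-05, limma), with 7.53, 7.81 and 8.04 in control medulla and 8.01, 8.18 and 8.66 in control cortex. A dimmer probe of Cox6b2, at a mean of 6.96 and under the floor, showed -0.02. Of the next pair, Cox6a1 differed by 0.07 ± 0.051 without passing the test, while Cox6a2, the form of heart and skeletal muscle, was lower, at -0.26 ± 0.074 (adjusted p = 0.0041, limma). Cox6a2 lay under the floor of 150 on 14 of 36 medulla arrays and 1 of 35 cortex arrays, so its medulla level is near the low end of the scale. Cox7a2, a common small subunit, was lower, at -0.40 ± 0.12 (adjusted p = 0.00684, limma), and its muscle partner Cox7a1 stood at -0.11, which did not pass. The Cox7a2 difference was -0.20 with the left-out array and did not pass. In exposed kidneys Cox7a1 was called lower in medulla at 0.3 Gy (-0.23) and 3 Gy (-0.29), and Cox7a2 at 10 Gy (-0.33). The Cox7a1 calls held in 15 and 26 of 27 alternatives, and the Cox7a2 call in 23. In controls Cox8a differed by 0.04 and Cox8b by 0.68 ± 0.36, neither past the threshold.

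Lists of genes that work beside the chain gave mixed counts in the same comparison, where 18.7% of all genes were higher and 18.7% lower. Of 16 measured ATP synthase genes, 0 were higher in control medulla and 1 was lower, Atp5d at -0.14. Of 15 tricarboxylic acid cycle genes, 0 were higher and 4 were lower, among them Suclg2, a subunit of succinyl-CoA ligase, at -0.85, Ogdh at -0.40 and Cs, citrate synthase, at -0.20. Of 13 genes of electron carriers and ubiquinone synthesis, 0 were higher and 2 lower, Etfdh at -0.26 and Coq9 at -0.20. Of 28 assembly factors 1 was higher, Acad9 at 0.33, and 2 were lower, Tmem126b at -0.23 and Coa5 at -0.13. Of 38 mitochondrial ribosome genes, 4 were higher and 6 lower, with Mrps6 at 1.38, Mrps11 at 0.35, Mrpl4 at -0.31 and Mrps12 at -0.26. Of 14 glycolytic genes, 6 were higher and 3 lower: Aldoc stood at 1.49, the glucose transporter Slc2a1 at 1.08 and Pfkp at 0.90, while Hk2 stood at -0.80. Of 14 regulators of mitochondrial biogenesis, 2 were higher and 1 lower, with Perm1 at 1.02, Gabpb1 at 0.26 and Polg, the mitochondrial DNA polymerase, at -0.22. Of 12 hypoxia-response genes, 1 was higher, Hif1a at 0.35, and 6 were lower, among them Ndrg1 at -0.76, Egln3 at -0.46 and Adm at -0.31. The differences between these lists, and of each list from the share of all genes, were not tested.

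The exposed kidneys showed the same comparison 3 more times, with means from separate samples but with the error of the same joint fit. At 0.3 Gy, 14 of 62 members (22.6%) differed between the zones, against 41.1% of all genes. At 3 Gy there were 16 (25.8%, against 42.5%), and at 10 Gy there were 12 (19.4%, against 40.6%). The members higher and lower in medulla were 5 and 9 at 0.3 Gy, where 20.6% and 20.5% of all genes were. They were 4 and 12 at 3 Gy (19.6% and 22.9% of all genes), and 4 and 8 at 10 Gy (21.4% and 19.2%). With the left-out array, which widens the error of the joint fit, the counts were 3 and 5, 1 and 3, and 2 and 2. Single arrays moved some counts by more than 1.5 times. The 5 at 0.3 Gy became 3 without replicate 1 of cortex at 1.5 or 3 months, or replicate 3 of medulla at any time. The 4 at 3 Gy became 2 without medulla replicate 1 at 1.5 months or replicate 3 at 4.5 months, and the 8 at 10 Gy became 5 without cortex replicate 1 at 1.5 months. With the replicate block, 7 members in place of 4 were higher at 10 Gy. Across the 4 dose levels, 36 members (58.1%) were called at none, compared with 40.4% of all genes.

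**Figure D1:**
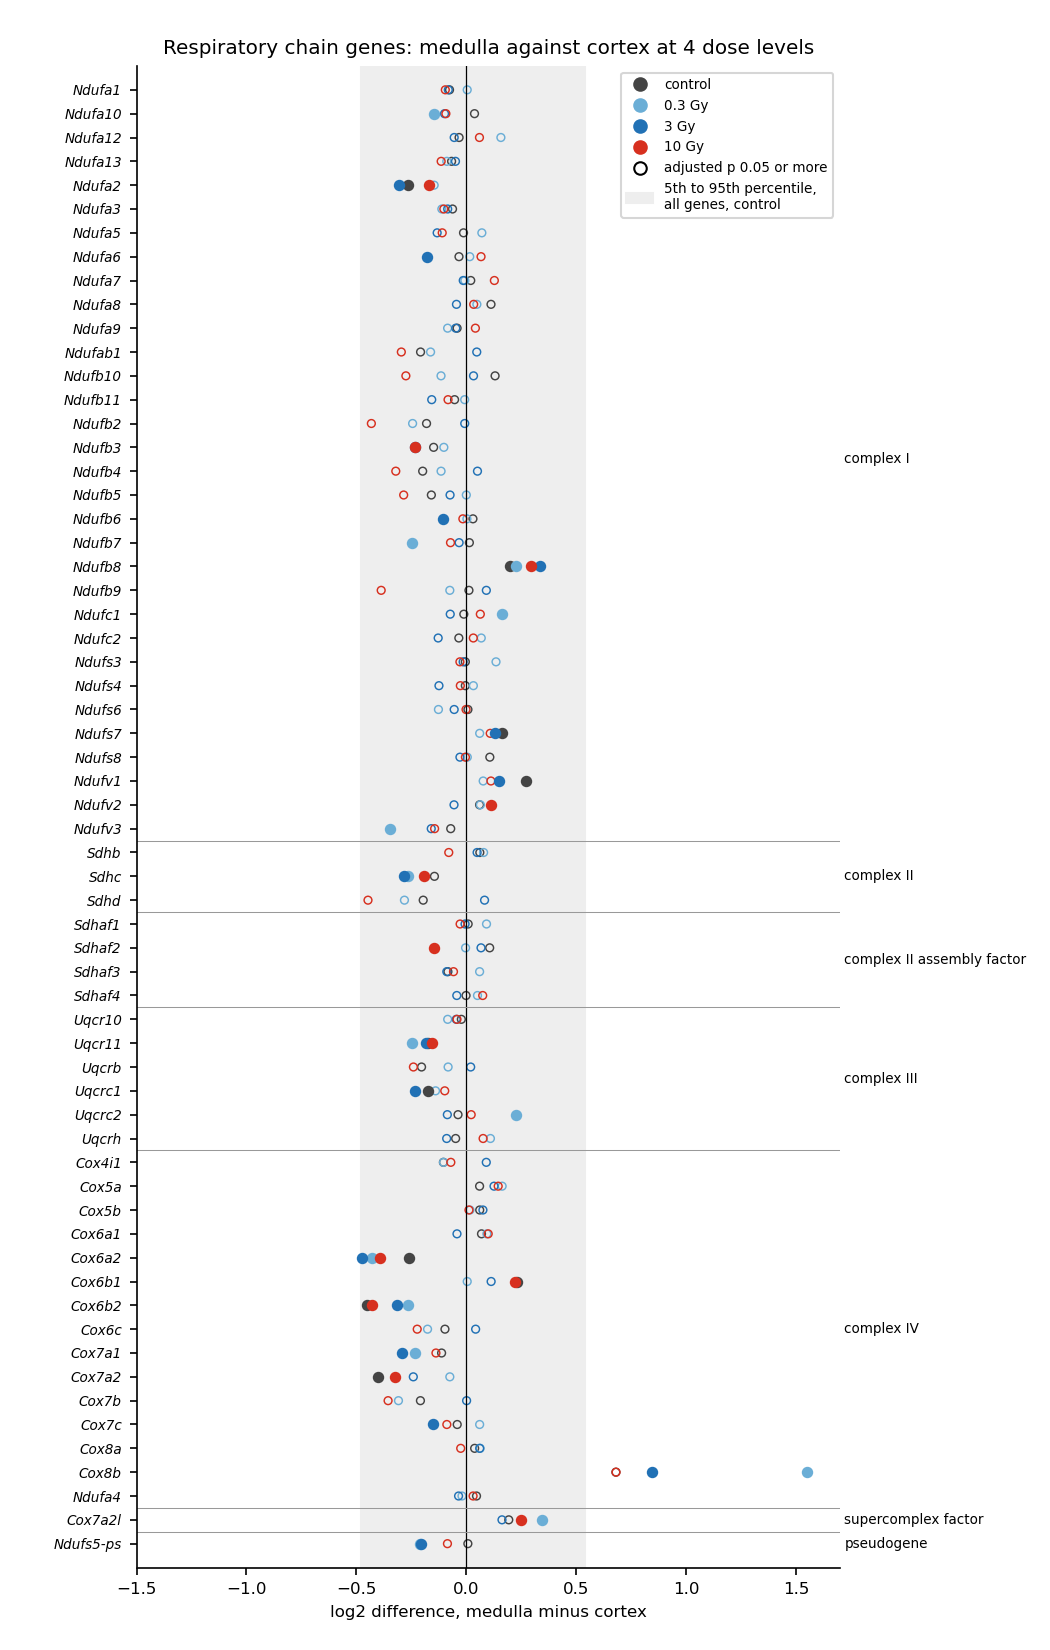
Log2 difference, medulla minus cortex, for each of the 62 members at 4 dose levels, averaged over the 3 times. Filled points passed an adjusted p of 0.05, open points did not, and the grey band spans the 5th to 95th percentile of all genes in controls. Ndufb8 is filled and right of 0 at all 4 dose levels, while Cox6a2, Cox6b2 and Uqcr11 are filled and left of 0.

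Of the 62 members, 4 were called in the same direction at all 4 dose levels. Ndufb8 was higher in medulla each time, by 0.20 in controls, 0.23 at 0.3 Gy, 0.33 at 3 Gy and 0.30 at 10 Gy. All genes called higher at every dose level made up 13.6% of those tested, against 1 member (1.61%). Ndufb8 was also the single member whose arrays did not overlap between the zones at 0.3 Gy and at 10 Gy, where 9.49% and 10.4% of all genes did not overlap. In controls and at 3 Gy, 0 members were without overlap, against 8.08% and 11.1% of all genes. At 0.3 Gy its lowest medulla value was 13.90 and its highest cortex value 13.86.

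Cox6a2, Cox6b2 and Uqcr11 were lower in medulla at all 4 dose levels, 3 members (4.84%) against 11.7% of all genes. For Cox6a2 the differences were -0.26 in controls, -0.43 at 0.3 Gy, -0.47 at 3 Gy and -0.39 at 10 Gy. For Cox6b2 they were -0.45, -0.26, -0.31 and -0.43 in the same order. For Uqcr11 they were -0.18, -0.25, -0.19 and -0.15, and with the left-out array in the fit Uqcr11 passed at none of the dose levels (adjusted p = 0.0631 to 0.964, limma). All 4 of these genes are accessory or small subunits, and the catalytic core genes Ndufv1 and Ndufs7 were called in controls and at 3 Gy. The 3 Gy calls of Ndufv1 and Ndufs7 were lost with the left-out array (adjusted p = 0.153 and 0.106).

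Sdhc and Ndufa2 were lower in medulla at 3 of the 4 dose levels, calls that depend in part on the processing. Sdhc stood at -0.27 at 0.3 Gy, -0.28 at 3 Gy and -0.19 at 10 Gy. At 3 Gy it had 12.40, 12.52 and 12.67 in medulla, against 12.57, 12.82 and 13.03 in cortex. With the left-out array in the fit Sdhc passed at none of them (adjusted p = 0.0931, 0.07 and 0.243, limma). A second, dimmer Sdhc probe showed -0.46 in controls, and with the mean of both probes the difference at 3 Gy was -0.14 (adjusted p = 0.233). The call of Ndufa2 at 10 Gy (adjusted p = 0.0485, limma) held in 12 of 27 alternatives, with adjusted p-values from 0.0237 to 0.223. Neither Sdhb, the iron-sulfur subunit, which lay between -0.08 and 0.08, nor Sdhd passed at any dose level. Among the assembly factors, Sdhaf2 was lower in medulla at 10 Gy, at -0.15 ± 0.054 (adjusted p = 0.0231, limma), a call that held in 19 of 27 alternatives (adjusted p up to 0.0761).

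Cox7a2l, a factor described for supercomplexes of complexes III and IV, was higher in medulla by 0.34 ± 0.083 at 0.3 Gy (adjusted p = 0.000596, limma) and by 0.25 ± 0.083 at 10 Gy (adjusted p = 0.0131, limma). Ndufv3, a small accessory subunit of complex I, was lower, at -0.35 ± 0.077 at 0.3 Gy (adjusted p = 0.000205, limma). Cox8b was higher by 1.55 ± 0.35 at 0.3 Gy (adjusted p = 0.000239, limma) and by 0.84 ± 0.35 at 3 Gy (adjusted p = 0.045, limma). The call at 3 Gy held in 11 of 27 alternatives, and with array weights the difference was 0.34 (adjusted p = 0.352). Ndufs5-ps was lower at 0.3 Gy and 3 Gy, at -0.21 and -0.20. Signal of a pseudogene and of its parent gene cannot be told apart by the probe's name. The calls not yet given were Ndufc1 (0.16), Uqcrc2 (0.22), Ndufa10 (-0.15) and Ndufb7 (-0.25) at 0.3 Gy. At 3 Gy they were Uqcrc1 and Ndufb3 (both -0.23), Ndufa6 (-0.18), Cox7c (-0.15) and Ndufb6 (-0.11). At 10 Gy they were Cox6b1 (0.22), Ndufv2 (0.11) and Ndufb3 (-0.23). Those of Ndufb6, Ndufc1 and Uqcrc2 held in 12, 14 and 17 of 27 alternatives, and the others in 18 to 27.

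**Figure D2:**
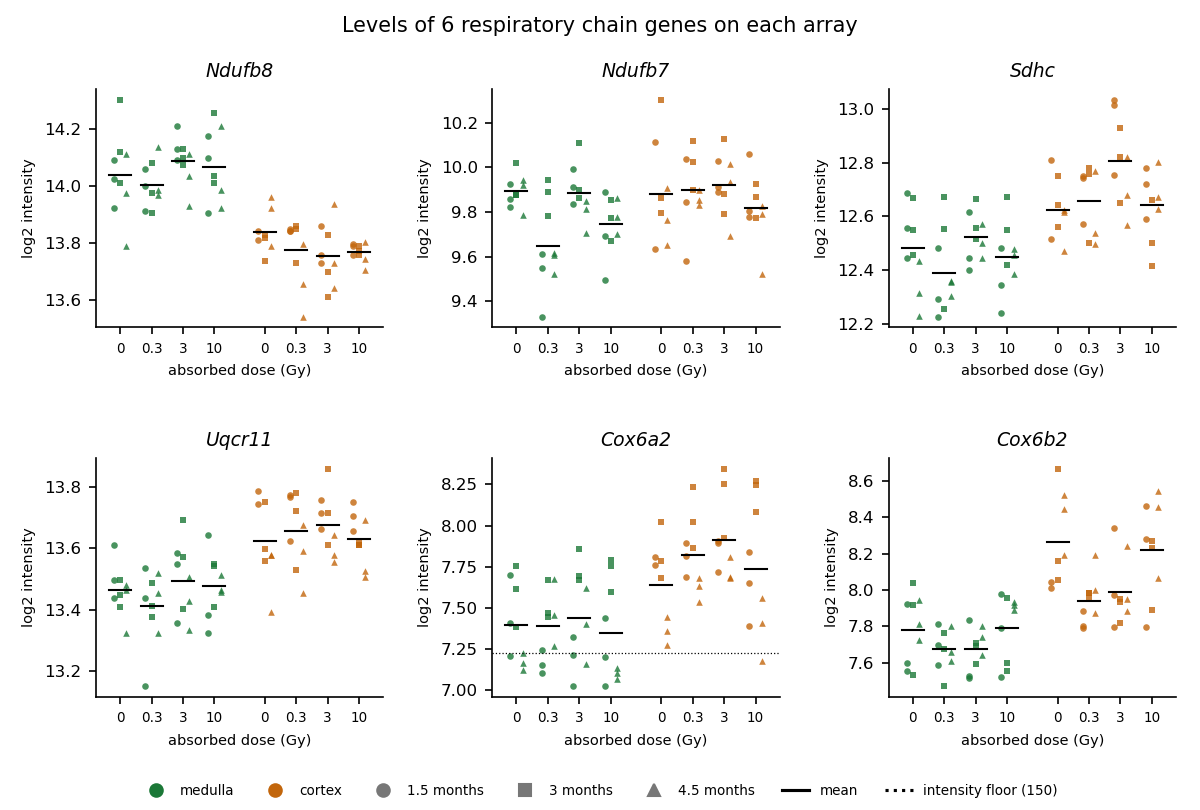
Log2 intensity of 6 members on each array, by zone and absorbed dose in Gy (0 is the control), with marker shapes for the 3 times and a black line at the mean of the arrays at that dose. Ndufb8 lies higher in medulla and Sdhc, Uqcr11, Cox6a2 and Cox6b2 lie lower, while Ndufb7 lies between 9.33 and 9.95 in medulla at 0.3 Gy. The dotted line marks the intensity floor of 150.

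No respiratory chain gene passed the threshold after exposure to 177Lu. In medulla, 0 of 62 members passed at 0.3 Gy, 3 Gy or 10 Gy against control, averaged over the times, while 0.0222%, 0.0665% and 0.0111% of all genes passed. In cortex, 0 of 62 passed at each dose as well, against 0.0997%, 0.211% and 0.0111% of all genes. At an unadjusted p under 0.05 the members numbered 4, 1 and 3 in medulla at 0.3, 3 and 10 Gy, and 6, 14 and 1 in cortex. In medulla these were 6.45%, 1.61% and 4.84% of members, against 8.03%, 5.52% and 4.44% of all genes. In cortex they were 9.68%, 22.6% and 1.61% of members, against 8.03%, 13.2% and 3.89% of all genes. The members' median difference from control was -0.04, -0.01 and -0.02 in medulla and -0.03, 0.04 and -0.00 in cortex, at 0.3, 3 and 10 Gy. Members above 0 numbered 18, 26 and 23 of 62 in medulla and 20, 38 and 31 in cortex. The median over all genes was 0.0075, 0.0017 and 0.006 in medulla and 0.0047, 0.0091 and -0.0017 in cortex. More genes thus lay above 0 than below it in all of these but cortex at 10 Gy. With the left-out array in the fit, 0 members passed in cortex and the members' medians there were 0.11, 0.18 and 0.14. The comparisons of a zone share their control arrays.

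The intervals of these differences were narrow for most members. The farther bound of the 95% confidence interval lay at a median of 0.18 to 0.23 log2 units from 0, and 53 to 57 of the 62 members stayed within 0.5 on either side in each of the 6 comparisons. The farthest bounds were those of Cox8b in cortex at 0.3 Gy, at -1.35, and of Ndufb9 in medulla at 3 Gy, at -0.83.

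**Figure D3:**
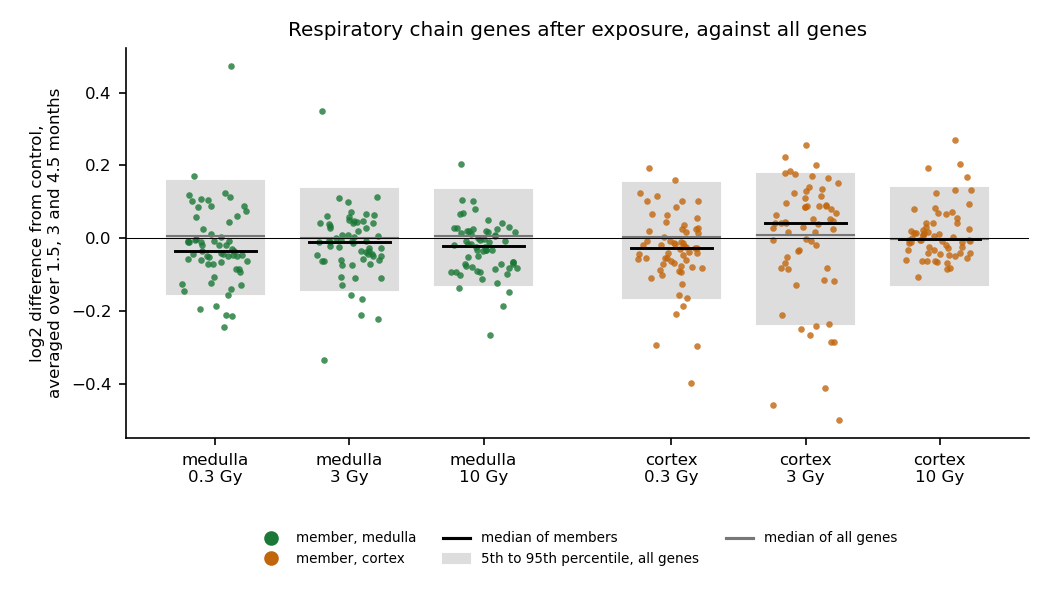
Log2 difference from control for the 62 members at each dose, averaged over 1.5, 3 and 4.5 months, in medulla (left) and cortex (right). Grey boxes span the 5th to 95th percentile of all genes, and black and grey lines mark the medians of the members and of all genes, which lie within 0.05 of 0 in every column.

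In the averaged comparisons the member nearest to a call was Ndufb7, an accessory subunit of the complex I membrane arm, in medulla at 0.3 Gy. Over the 9 arrays of each group, its lowest, median and highest values were 9.33, 9.61 and 9.95 at 0.3 Gy, against 9.79, 9.88 and 10.02 in controls. At 1.5 months the 3 exposed arrays read 9.61, 9.55 and 9.33, against 9.82, 9.92 and 9.86 in the controls. At 4.5 months they read 9.61, 9.52 and 9.62, against 9.92, 9.94 and 9.79. All 6 of these exposed arrays lay below the controls of their own time, whereas at 3 months the groups overlapped, with 9.89, 9.95 and 9.78 against 9.88, 10.02 and 9.88. How many of all genes were separated in this way at single times was not counted. The averaged difference was -0.24 ± 0.056 (adjusted p = 0.0813, limma). It was -0.01 ± 0.056 at 3 Gy and -0.15 ± 0.056 at 10 Gy (adjusted p = 0.959, limma), so the size did not follow the dose. With array weights the 0.3 Gy difference passed (adjusted p = 0.0186), and 72 genes were then called in place of 2.

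In cortex the highest member at 3 Gy was Cox6a2, with 7.68, 7.89 and 8.34 at 3 Gy, against 7.27, 7.72 and 8.02 in controls. Its difference was 0.25 ± 0.072 (adjusted p = 0.16, limma), and it passed with array weights alone (adjusted p = 0.0281). Cox7a1 followed with 0.22 and Ndufv3 with 0.20. The lowest members at 3 Gy were Sdhd, the small membrane anchor of complex II, at -0.50 ± 0.23, Ndufb4 at -0.46 ± 0.26 and Ndufb9 at -0.41 ± 0.19, with adjusted p-values from limma of 0.357, 0.444 and 0.349. These 3 genes vary widely between replicates, as described below. At 0.3 Gy the extremes in cortex were Ndufv3 at 0.19, Cox6a2 at 0.16 and Ndufa10 at 0.13, and Cox8b at -0.40, with Cox6b2 and Ndufb4 at -0.29. At 10 Gy they were Ndufb10 at 0.27, Cox8b at 0.20 and Ndufb5 at 0.19, and Uqcrh at -0.11, with Ndufa12 and Ndufa6 at -0.08.

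The other extremes in medulla did not pass either. At 0.3 Gy, Cox8b stood at 0.47 ± 0.16 (adjusted p = 0.391, limma), Uqcrc2 at 0.17 and Ndufa12 at 0.12, and Ndufb9 and Ndufb4 both stood at -0.21. At 3 Gy, Cox8b stood at 0.35, with Ndufv3 and Sdhaf3 at 0.11, and Ndufb9 at -0.33, Sdhd at -0.22 and Ndufb4 at -0.21. At 10 Gy, Cox8b stood at 0.20, with Ndufc1 at 0.11 and Ndufa7 at 0.10, and Ndufb9 at -0.27, Sdhd at -0.18 and Ndufb7 at -0.15. None of the 8 lists of genes that work beside the chain had a member past the threshold in any of the 6 averaged comparisons.

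Single times gave the same count. In the 18 comparisons of 1 dose at 1 time, 0 members passed, while between 0% and 0.166% of all genes did. At an unadjusted p under 0.05, between 0 and 13 members did so, the 13 (21% of members, against 12% of all genes) in cortex at 3 Gy and 3 months. The smallest adjusted p was 0.0761 there, for Ndufa5, an accessory subunit of complex I. Its values were 13.15, 13.08 and 13.15 at 3 Gy, against 12.81, 12.59 and 12.80 in controls. The 3 exposed arrays lay above the 3 controls, a difference of 0.39 ± 0.095. Cox6a1, Cox7c and Ndufb6, among other members, were also without overlap there, as was Cox6b2 below its controls. The share of all genes without overlap at single times was not counted.

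10 Gy against 0.3 Gy gave 0 called members in medulla (0% of all genes) and 0 in cortex (0.0443% of all genes), with 2 members (3.23%, against 6.94% of all genes) and 3 members (4.84%, against 6.45%) at an unadjusted p under 0.05. The farthest values were Cox7b at 0.16, Ndufa7 and Cox6b1 above 0 and Cox8b at -0.27, Ndufs3 and Uqcrc2 below it in medulla. In cortex they were Cox8b at 0.60, Ndufb4 and Cox6b2 above 0 and Ndufv3 at -0.15, Ndufs6 and Ndufa10 below it. The test of dose by time gave 0 in medulla (0%) and 0 in cortex (0.0222%), with 2 members each at an unadjusted p under 0.05, against 5.67% of all genes in medulla and 5.47% in cortex. The response itself was not shown to differ between zones: 0 members and 0% of all genes passed at 0.3 Gy, 3 Gy and 10 Gy. At an unadjusted p under 0.05, 7, 6 and 2 members did (11.3%, 9.68% and 3.23%), against 5.74%, 2.58% and 4.03% of all genes. The largest of these differences at 0.3 Gy belonged to Cox8b, with a response of 0.47 in medulla and -0.40 in cortex. For Ndufb7 the responses at 0.3 Gy were -0.24 in medulla and 0.02 in cortex, and their difference was -0.26 ± 0.098 (adjusted p = 0.789, limma). Ndufv3 at -0.28 and Ndufb10 at -0.25 were the other low values, and Cox7a2 at 0.33 and Uqcrc2 at 0.26 the other high ones. At 3 Gy the farthest differences were those of Sdhd at 0.28, Ndufab1 at 0.26 and Ndufb4 at 0.25, and of Cox6a2 and Ndufs5-ps at -0.21 and Cox7a1 at -0.18. At 10 Gy they were Uqcrh at 0.12, Ndufa7 at 0.11 and Ndufa6 at 0.10, and Ndufb10 at -0.41, Ndufb9 at -0.40 and Sdhaf2 at -0.26.

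Between times, Cox6a2 came near a call in the controls. In cortex controls it read 7.45, 7.36 and 7.27 at 4.5 months, against 7.68, 8.02 and 7.79 at 3 months. In medulla controls it read 7.23, 7.12 and 7.16 at 4.5 months, against 7.39, 7.61 and 7.75 at 3 months. The later arrays lay below the earlier ones in both zones, with differences of -0.47 ± 0.12 in cortex (adjusted p = 0.0643, limma) and -0.41 ± 0.12 in medulla (adjusted p = 0.142, limma). The share of all genes so separated between times was not counted. All 3 medulla values at 4.5 months were under the floor of 150. In all 6 comparisons of times, 3 in each zone, 0 members passed. All genes passing were 0.0332% in medulla and 0.0111% in cortex for controls at 4.5 against 1.5 months, 0.477% and 0.532% for controls at 4.5 against 3 months, and 0.177% and 0.399% for exposed mice at 4.5 against 1.5 months. Members at an unadjusted p under 0.05 numbered 11, 5 and 4 in medulla (17.7%, 8.06% and 6.45%), against 12.5%, 10.5% and 8.48% of all genes. In cortex they numbered 7, 4 and 13 (11.3%, 6.45% and 21%), against 9.14%, 9.77% and 13.3% of all genes. In medulla controls at 4.5 against 1.5 months, Ndufb4 (0.90), Ndufb5 (0.71) and Cox7b (0.69) were highest, and Cox7a1 (-0.39), Cox4i1 (-0.36) and Ndufs5-ps (-0.32) lowest. In cortex controls they were Cox8b (1.31), Ndufb4 (0.50) and Cox7b (0.39), and Cox6a2 (-0.43), Ndufa13 (-0.27) and Sdhaf3 (-0.26). At 4.5 against 3 months the other extremes were Ndufb4 (0.23), Cox8b (0.22), Cox7b (0.16), Cox4i1 (-0.36) and Ndufb10 (-0.36) in medulla controls, and Cox8b (2.27), Ndufb4 (0.24), Sdhd (0.23), Ndufa6 (-0.23) and Ndufb7 (-0.21) in cortex controls. In exposed mice at 4.5 against 1.5 months they were Cox6c (0.18), Uqcrb (0.16), Ndufb11 (0.14), Cox6a1 (-0.18), Uqcrc2 (-0.18) and Cox6b1 (-0.17) in medulla, and Ndufb4 (0.23), Ndufb5 (0.21), Sdhd (0.21), Cox7a1 (-0.25), Cox6a2 (-0.18) and Ndufa10 (-0.16) in cortex. None of these passed the test, and several are members with a wide spread between replicates.

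The replicate arrays of a group did not agree equally well for all members. The median within-group SD was 0.15 both for members and for all genes. Yet 9 members (14.5%) exceeded 0.35, the 95th percentile of all genes: Cox8b at 0.78, Ndufb4 at 0.61, Sdhd at 0.55, Ndufb9 at 0.49, Cox7b at 0.485, Ndufb2 at 0.46, Ndufb5 at 0.41, Uqcrb at 0.38 and Ndufb10 at 0.37. The steadiest members were Ndufv2 at 0.07 and Ndufb6 at 0.09. Of the 8 that remain without Cox8b, Sdhd is of complex II, Uqcrb of complex III, Cox7b of complex IV and the others of the complex I membrane arm. Other genes of that arm were steadier, such as Ndufb8 at 0.10 and Ndufb7 at 0.14, as was Sdhb of complex II at 0.17. By their spread over group means, the leading members of each complex were Ndufb4 (SD 0.29) in complex I, Sdhd (0.28) in complex II, Uqcrb (0.19) in complex III and Cox8b (0.69) in complex IV, and Sdhaf3 (0.12) among the assembly factors.

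The 8 genes without Cox8b tended to be low on the same replicate array. In medulla at 0.3 Gy and 1.5 months the 3 arrays read 10.28, 11.16 and 11.66 for Sdhd and 9.09, 10.05 and 11.02 for Ndufb4. In cortex at 3 Gy and 3 months they read 9.83, 11.25 and 11.72 for Sdhd, 9.13, 10.39 and 10.87 for Ndufb4 and 10.56, 11.28 and 11.68 for Ndufb9. The order of the arrays is the same in each case. Over the 23 groups of 3 arrays, the array lowest in Sdhd was also lowest in the other 7 genes in 13 to 21 groups. For the median member it was lowest in 8 groups, for the median of all genes in 6, and for Cox8b in 7. Just below that percentile, Ndufab1, Cox7a2 and Cox6c shared it in 21, 19 and 19 groups.

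**Figure D4:**
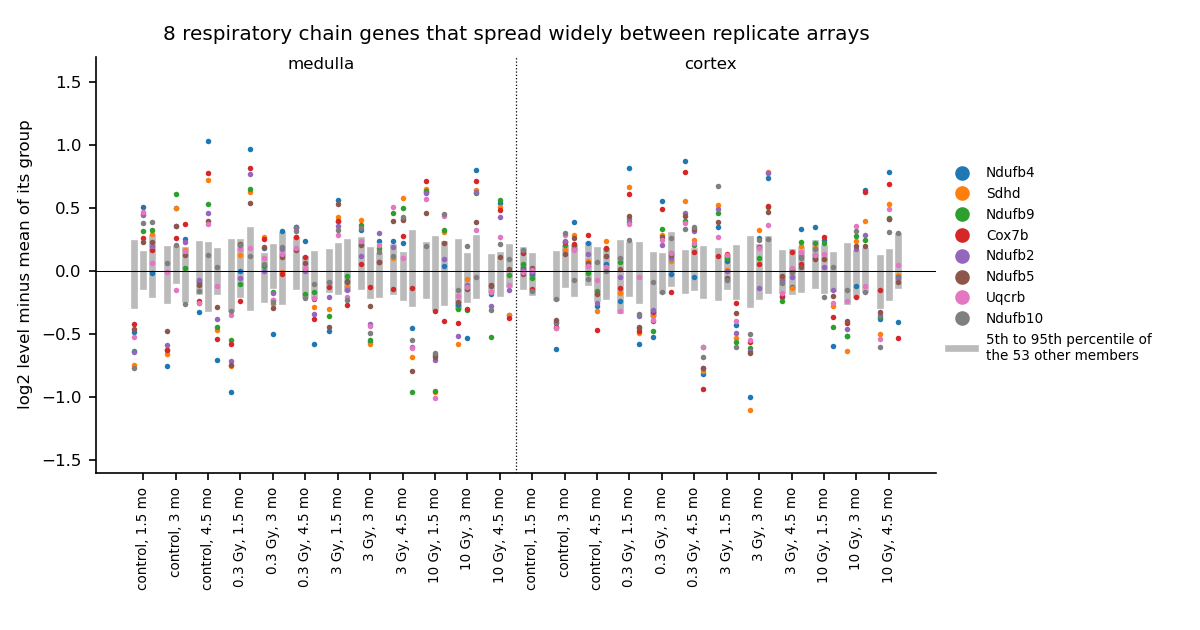
Log2 level of 8 members minus the mean of their group, for each of the 71 arrays, with groups ordered by zone, dose and time. Grey bars span the 5th to 95th percentile of the 53 other members on the same array. The 8 genes sit together above or below the bar on many arrays, down to about -1 on the lowest.

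Some other lists shared the low array. Over all genes, 28% of the within-group variance lay on the first principal component. The list of ATP synthase genes was lowest on the array lowest in Sdhd in 19 of 23 groups and the hypoxia-response list in 18. The count was 12 for tricarboxylic acid cycle genes and for assembly factors, 9 for glycolysis, 8 for mitochondrial ribosome subunits and for electron carriers, and 7 for biogenesis regulators. It was 11 for proximal tubule markers, 4 for macrophage markers and 2 for endothelial markers. No RNA quality value or chip number is given in the sources used here, and their part in this spread was not tested. The spread sets the width of the intervals for these members. It stands beside the low values of Sdhd, Ndufb4 and Ndufb9 in cortex at 3 Gy, where their arrays ran from 9.83 to 11.72, from 9.13 to 10.87 and from 10.56 to 11.68.

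The members' promoters were read for motifs of factors known to drive nuclear genes of the respiratory chain. RefSeq promoters of 300 bases (250 before to 50 after the start, build GRCm38.p6) were found for 53 of the 62 members, 55 promoters in all. Cox4i1, Cox6a2, Cox6c, Ndufa2, Ndufb9, Ndufs5-ps, Sdhc, Uqcrb and Uqcrc2 were not matched. The motifs, on both strands, were GCGC, 1 base of any kind and TGCGC for NRF-1, CCGGAAG for the ETS family with GABP, and ATGGCG for YY1, and they do not contain one another. The members' promoters held the NRF-1 letters in 20% of cases, the ETS letters in 25.5% and the YY1 letters in 29.1%, against 4.6%, 8.86% and 8.93% of 32851 promoters. Any of the 3 stood in 61.8% of the members' promoters and in 19.3% of all. The 32851 promoters belong to 27025 genes and were not limited to the genes past the intensity floor, whose share was not counted. Among the 6 widely spread genes with a promoter, 3 held a motif. Sdhd and Ndufb4 are printed as the genes with the widest shared spread, Ndufb8 as the gene higher in medulla at every dose level, and Cox8b as the gene that moved apart from the rest. Capitals mark the motifs, and all 4 genes lie on the minus strand, at chr9:50603800-50604099 (Sdhd), chr16:37654319-37654618 (Ndufb4), chr19:44555393-44555692 (Ndufb8) and chr7:140900397-140900696 (Cox8b).
Sdhd: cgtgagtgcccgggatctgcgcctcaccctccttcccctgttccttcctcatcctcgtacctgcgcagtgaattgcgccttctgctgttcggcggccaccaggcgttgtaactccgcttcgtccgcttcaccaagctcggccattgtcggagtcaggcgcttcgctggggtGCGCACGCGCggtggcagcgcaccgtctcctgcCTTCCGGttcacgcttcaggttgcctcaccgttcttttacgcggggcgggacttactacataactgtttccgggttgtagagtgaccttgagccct
Ndufb4: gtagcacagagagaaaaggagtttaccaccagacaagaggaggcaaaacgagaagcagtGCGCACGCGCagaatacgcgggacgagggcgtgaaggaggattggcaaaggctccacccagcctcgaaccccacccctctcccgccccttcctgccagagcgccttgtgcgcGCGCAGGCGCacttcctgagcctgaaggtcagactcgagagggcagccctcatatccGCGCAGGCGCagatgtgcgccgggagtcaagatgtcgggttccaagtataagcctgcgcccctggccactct
Ndufb8: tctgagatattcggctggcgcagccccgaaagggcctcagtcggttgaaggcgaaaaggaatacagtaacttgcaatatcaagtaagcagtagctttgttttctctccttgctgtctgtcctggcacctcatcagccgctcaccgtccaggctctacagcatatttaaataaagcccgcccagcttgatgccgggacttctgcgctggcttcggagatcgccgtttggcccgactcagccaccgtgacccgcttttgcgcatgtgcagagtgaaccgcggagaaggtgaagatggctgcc
Cox8b: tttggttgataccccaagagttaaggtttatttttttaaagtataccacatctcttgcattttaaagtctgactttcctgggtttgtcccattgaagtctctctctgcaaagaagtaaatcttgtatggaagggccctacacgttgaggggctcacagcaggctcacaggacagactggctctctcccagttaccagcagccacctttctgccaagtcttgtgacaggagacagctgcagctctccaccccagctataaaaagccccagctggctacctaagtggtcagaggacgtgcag
The window of Sdhd held 1 NRF-1 match and 1 ETS match, and that of Ndufb4 held 3 NRF-1 matches. The windows of Ndufb8 and Cox8b held none of these letters. A match describes the letters and not a bound site.

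Cox8b, the complex IV subunit known from heart, skeletal muscle and brown fat, spread more widely in cortex than in medulla. Its values lay between 9.003 and 10.63 on the 36 medulla arrays (median 9.86), and between 6.89 and 11.22 on the 35 cortex arrays (median 8.97). The within-group SD was 0.38 in medulla and 1.04 in cortex. In cortex controls it read 9.76, 10.67 and 10.07 at 4.5 months, against 8.13, 7.35 and 8.20 at 3 months. The groups did not overlap, but the difference of 2.27 ± 0.77 did not pass the test (adjusted p = 0.206, limma). Fitted on the arrays of those groups alone it did (adjusted p = 0.0194, limma). How many of all genes were without overlap between these groups was not counted.

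Cortex arrays high in Cox8b were high in fat cell genes. Of 10 listed adipocyte markers 5 were measured. Cidea, a lipid droplet protein of brown and beige fat, correlated with Cox8b over the 35 cortex arrays with Pearson r = 0.93 and Spearman rho = 0.91, each with a permutation p of 1e-05, the smallest these permutations can give (adjusted over 10 relations, 3.33e-05). Without the 2 arrays farthest from the median of Cidea, r was 0.91, and within groups it was 0.93. Cidec, another lipid droplet protein, gave r = 0.82 and rho = 0.81, and the hormone Adipoq gave r = 0.81 and rho = 0.81, with the same p-values. Fabp4 gave r = 0.67 and rho = 0.68 and Lep r = 0.58 and rho = 0.62, with adjusted permutation p-values of 0.00052 or less, and within groups r for Lep was 0.37. In medulla the 5 values of r ran from -0.18 to 0.22, with adjusted permutation p-values from 0.332 to 0.714. Fabp4 and Lep there reached only 7.56 and 7.53, near the floor of 7.23. Cidec, Cidea and Adipoq reached 8.46, 8.66 and 10.28 in medulla, against 10.79, 10.29 and 12.07 in cortex. With so little marker signal, the low r values cannot tell whether the relation differs between the zones.

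The adipocyte markers were the lower ones where Cox8b was the higher. Their summed intensity ran from 623 to 2159 in medulla (median 755) and from 653 to 7090 in cortex (median 1905). On 3 medulla arrays and 0 cortex arrays all 5 lay under the floor. In controls 3 of the 5 were lower in medulla and 0 higher, with a median difference of -0.91, against 0.68 for Cox8b. In cortex controls the sum ran from 2402 to 6311 at 4.5 months, against 954 to 1697 at 3 months. Of 10 striated muscle markers 0 reached the floor. The part of fat cells in the Cox8b values of the cortex was not tested.

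**Figure D5:**
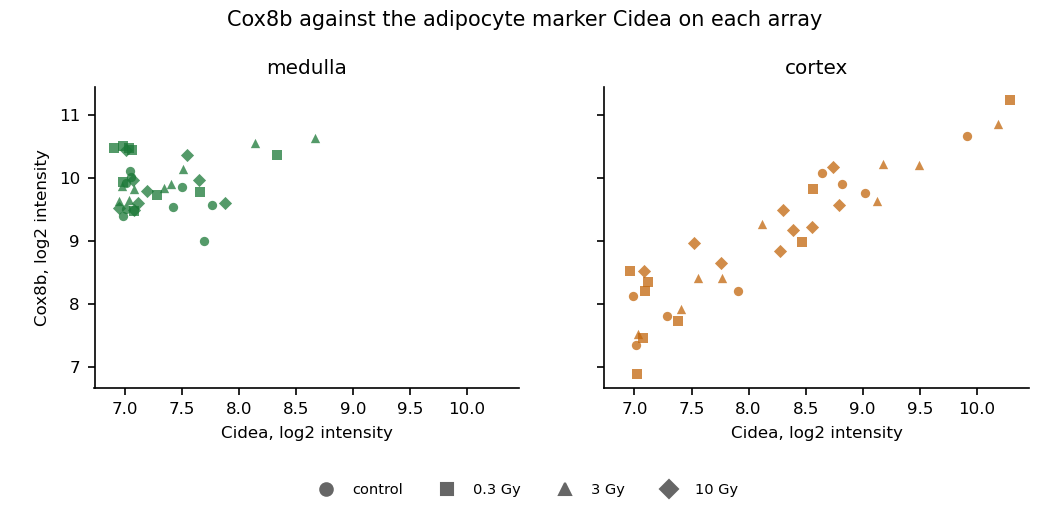
Log2 intensity of Cox8b against that of the adipocyte marker Cidea, 1 point per array, in medulla (36 arrays, left) and cortex (35 arrays, right), with marker shapes for the dose. In cortex the points follow a rising line (r = 0.93) over Cidea values from 6.96 to 10.29. In medulla Cidea spans only 6.90 to 8.66, and Cox8b stays between 9.003 and 10.63.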

How the data were processed

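Total RNA from 72 kidney samples was hybridised to Illumina MouseRef-8 arrays, and the deposited normalized table holds linear intensities. Per the labels' protocols, RNA was extracted from fresh-frozen tissue, checked on a Bioanalyzer and labelled with biotin. The values of all arrays, once sorted, differ by at most 1.262, so the authors' intensities came with nearly the same distribution on every array of both zones. How the authors brought this about is not given in the sources used here, and its effect on differences between zones was not tested. A second, non-normalized table has 144 columns that could not be given samples and were not used.

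Values were taken to log2 with no further normalization. Of 25697 probes, 23978 had 1 gene symbol and 1719 none. The brightest probe stood for a gene, and genes under 150 in every group were left out. Groups came from the labels. Each zone was fitted on its own (36 medulla and 35 cortex arrays), and comparisons of zones on all 71 arrays, with limma 3.58.1 in R 4.3.3 (lmFit, eBayes with a trend). Benjamini-Hochberg adjustment ran over 9024 genes at a threshold of 0.05, in 41 comparisons. Correlations were tested with 100000 permutations, two-sided. The fit was tested on simulated data with independent noise for each gene. That test does not cover the spread that genes share between replicate arrays. The members and gene lists were chosen with earlier results of these data known. Genes were named by a rule: called members, the 3 highest and 3 lowest of each comparison, the widest-spread member of each complex and the pairs of related forms. Samples of the zones with the same number were not treated as pairs: the labels give no pairing, and the correlation of their deviations exceeded 0.1 in 22 of 35 pairs but not in every pair (median 0.127, range -0.43 to 0.65). Alternatives were the left-out array, array weights, all probes of a gene, no filter, normexp, cyclic loess, no variance trend, the compared arrays alone, a replicate block and each array left out in turn.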

Additional observations from a re-analysis of the deposited data

Results flagged for a closer look

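Replicate 3 of the cortex controls at 1.5 months, which no comparison used, gave a signal above every other cortex array for 2 members, although 53 of the 62 lay below every other cortex array there. Cox7a2l, the supercomplex factor, read 11.92 on it, against 11.89 on the highest of the others. Sdhaf2, an assembly factor of complex II, read 9.44, against 9.25. Each member's value on this array minus its mean on the other 2 controls of the group had a median of -1.11 over the members.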

How the results depend on the processing

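Ndufb8, Cox6a2 and Cox6b2 kept their direction and their call between zones at all 4 dose levels under every alternative run, as did Ndufv1 and Ndufs7 in controls. For Cox6b2 these alternatives rest on the brighter probe, and in controls they ran from -0.57 to -0.39. Its dimmer probe, under the floor and at -0.02 in controls, had no visible part in them. The calls of Ndufa2 at 10 Gy, Ndufb6 at 3 Gy and Cox8b at 3 Gy were lost most often.

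With the left-out array in the fit, members higher and lower in medulla numbered 3 and 5 at 0.3 Gy, 1 and 3 at 3 Gy and 2 and 2 at 10 Gy, and 2 were lower in controls. Uqcr11 (0.0082) and Uqcrc1 (0.0299) then turned direction in controls. The members' median was 0.0998 between zones in controls, -0.1242, -0.1727 and -0.1622 for the response by zone at 0.3, 3 and 10 Gy, 0.3471, 0.386 and 0.3901 for cortex doses at 1.5 months, 0.1062, 0.1807 and 0.1369 for them averaged, and 0.3229 for cortex controls at 4.5 against 1.5 months.

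Array weights, whose fit stopped before it converged, called 5 members lower in medulla at 0.3 Gy and 1.5 months (Cox7a1, Ndufb7, Ndufs5-ps, Ndufs8 and Sdhc), 1 lower averaged (Ndufb7), 2 higher in cortex at 3 Gy and 3 months (Cox6a1 and Ndufa5), 1 higher averaged (Cox6a2), 1 lower in cortex controls at 4.5 against 3 months (Cox6a2) and 1 lower in exposed cortex at 4.5 against 1.5 months (Cox7a1). Their medians were -0.0232 for medulla at 3 Gy and 3 months and -0.0831 for medulla controls at 4.5 against 3 months. The mean of all probes gave a median of 0.015 for medulla controls at 4.5 against 1.5 months. Members higher in medulla were 3 at 0.3 Gy with no filter, 3 at 0.3 Gy and 2 at 3 Gy with the compared arrays alone, and 7 at 10 Gy with cyclic loess. The compared arrays alone called 1 higher (Cox8b) in cortex controls at 4.5 against 3 months. With the replicate block 7 were higher at 10 Gy, and same-numbered arrays of the zones had a consensus correlation of 0.142. The causes were not tested.

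Leaving out each array in turn gave, for members higher and lower in medulla, 3 to 6 and 7 to 10 at 0.3 Gy, 2 to 4 and 10 to 15 at 3 Gy, 3 to 6 and 5 to 10 at 10 Gy, and 5 to 8 lower in controls. Medians ran from -0.057 to 0.0185 between zones at 0.3 Gy, from -0.0212 to 0.0586 for cortex at 0.3 Gy and 3 months, from -0.0269 to 0.0508 at 10 Gy and 1.5 months, and from -0.0781 to -0.0012 for cortex controls at 4.5 against 1.5 months. In medulla they ran from -0.0256 to 0.0521 at 3 Gy and 3 months, from -0.041 to 0.0131 at 3 Gy and 4.5 months, from -0.0494 to 0.0229 for controls at 4.5 against 1.5 months, and from -0.0777 to 0.0003 for controls at 4.5 against 3 months. Where 1 cortex control stays at 1.5 months, it is assumed to vary like the other groups. The non-normalized table and the chip as a block were not run, since its columns and the chips could not be given to samples.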
